A study of Homo sapiens with 12 samples.

Results

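The genes described here are those of the contractile actomyosin apparatus, of the YAP and TEAD transcription factors and of their target genes. Members were the genes on a fixed list of 38 symbols, matched to array probes by gene symbol after the symbols had been updated through their Entrez number. Of these, 35 were measured, by 75 probes, among 18646 genes in all, while TPM3, FLNA and FLNC were not analysed here. A single probe measured 12 of the members and 2 or more probes measured 23.

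The cells were NT2/D1 (NTERA2), a human embryonal carcinoma line that differentiates when given retinoic acid. A line with a short hairpin RNA directed at ZRF1 (shZRF1; gene symbol DNAJC2) was set against a line with a random hairpin (shRandom), both either untreated (0 h) or exposed to 0.01 µM retinoic acid for 3 h. On each of 12 Agilent 2-colour arrays the knockdown RNA was hybridised together with control RNA of the same treatment. There were 3 biological replicates at each time, each on a forward array, where Cy5 marked the knockdown, and on a swapped array, where Cy3 did. The labels number the knockdown line from 1 to 6 over the replicates while the titles give 1 name, and they do not say whether these were separate clones or cultures. All values below are log2 ratios of knockdown over control unless a fold is named, so a positive value means more RNA in the knockdown. The files hold ratios and no intensities, so no level of any gene, and no check of the cell type against its marker genes, could be had. The arrays compared RNA of whole cultures, in which a change in the number of cells that express a gene and a change per cell cannot be told apart.

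Non-muscle myosin pulls on actin filaments, and tropomyosins, calponins, caldesmon and transgelins bind along those filaments and govern access of the motor. Filaments end at focal adhesions, where vinculin and zyxin sit. YAP1 and its relative WWTR1 (TAZ) are coactivators that enter the nucleus when cells are spread and under tension, bind the TEAD factors and switch on genes such as CCN1, CCN2 and ANKRD1, and the LATS kinases hold them in the cytoplasm. Many actin and actin-binding genes are instead driven by SRF, which binds the CArG box and is itself regulated by free actin.

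The promoters of the 2 YAP targets with the smallest p over both times, CCN2 and ANKRD1, and of 2 actin genes that behaved differently on the arrays, ACTG2 and ACTG1, are shown first because they carry the motifs bound by TEAD factors and by SRF. Each is the 250 bases before the gene's start, 5′ to 3′ on the gene's strand, from RefSeq (GRCh38.p14). Capitals mark the TEAD core motif GGAATG in CCN2 (chr6:131951373-131951622, minus strand) and ANKRD1 (chr10:90921088-90921337, minus strand) and the CArG box in ACTG2 (chr2:73892758-73893007, plus strand) and ACTG1 (chr17:81512800-81513049, minus strand).
CCN2: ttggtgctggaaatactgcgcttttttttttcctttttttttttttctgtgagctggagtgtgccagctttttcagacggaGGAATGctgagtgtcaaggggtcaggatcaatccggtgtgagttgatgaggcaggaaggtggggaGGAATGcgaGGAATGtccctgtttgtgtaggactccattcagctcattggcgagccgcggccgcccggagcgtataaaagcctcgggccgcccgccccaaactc
ANKRD1: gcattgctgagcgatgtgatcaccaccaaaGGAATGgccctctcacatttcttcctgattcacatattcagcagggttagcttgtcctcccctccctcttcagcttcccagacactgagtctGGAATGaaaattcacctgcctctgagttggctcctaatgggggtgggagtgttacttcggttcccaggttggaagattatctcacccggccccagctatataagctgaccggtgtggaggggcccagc
ACTG2: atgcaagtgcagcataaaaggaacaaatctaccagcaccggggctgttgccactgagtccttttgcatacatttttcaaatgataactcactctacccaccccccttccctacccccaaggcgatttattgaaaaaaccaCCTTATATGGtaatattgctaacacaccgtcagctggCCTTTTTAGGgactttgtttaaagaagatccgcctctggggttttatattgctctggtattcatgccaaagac
ACTG1: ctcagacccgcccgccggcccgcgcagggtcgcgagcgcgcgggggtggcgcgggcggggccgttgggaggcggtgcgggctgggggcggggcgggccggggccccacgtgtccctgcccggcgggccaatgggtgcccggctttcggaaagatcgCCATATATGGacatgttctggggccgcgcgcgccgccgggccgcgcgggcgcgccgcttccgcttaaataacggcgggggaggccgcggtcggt

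CCN2 held 3 matches of the TEAD core, beginning 169, 104 and 95 bases before the start, the latter 2 almost side by side. ANKRD1 held 2, at 220 and 128 bases. ACTG2 held 2 CArG boxes, at 110 and 73 bases, and ACTG1 held 1, at 94 bases. Searched on both strands, GGAATG occurred in 13 of the 29 members found in the RefSeq promoter table (14 of their 47 promoter entries), against 11.9% of 35116 promoters. The members with a match were ACTA2, ACTN1, AMOTL2, ANKRD1, AXL, CALD1, CCN2, CNN3, MYH10, MYH9, THBS1, VCL and YAP1. The CArG box is CC, then 6 bases that are A or T, then GG. It occurred in 6 of the 29 members (6 of their 47 promoter entries), against 1.16% of all promoters. Those members were ACTG1, ACTG2, ACTN1, CNN2, MYLK and TPM4. ACTB, CCN1, MYL9, TAGLN, TEAD1 and TEAD4 were not matched in that table. The shares of all promoters count promoter entries, so they stand beside the 47 entries and not beside the 29 genes. The list was drawn up to hold actomyosin genes and genes driven by YAP, TEAD or SRF. A higher share among its members is therefore not a finding. A match is a description of these letters and not evidence of binding.

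The question put to the arrays was how the RNA of these genes differed between ZRF1 knockdown and control cells before and after retinoic acid. Changes were small for most members. The heavy chain MYH9 rose most and ACTG2, ANKRD1 and THBS1 rose by much less, whereas CCN2, TPM2 and AXL fell. In the mean effect over both times, the average of 6 replicate values, 13 of 35 members passed the limma test at an adjusted p under 0.05, 10 higher and 3 lower in the knockdown. Of all 18646 genes 21.5% passed in that comparison, 10.8% higher and 10.7% lower. The members had been chosen with earlier results of these data known, so these shares are not a test of the list. The median ratio of the members was 0.02, and that of all genes was 0.00. The targeted gene DNAJC2 stood at -0.83 ± 0.15 (SE, n = 6; limma adjusted p = 0.0111) and was lower in the knockdown on 12 of 12 arrays. It did not pass at 0 h (-0.70; limma adjusted p = 0.106), and on forward arrays alone its mean effect missed the threshold (-0.94; adjusted p = 0.0647).

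Some arrays had a wide spread of ratios, and several results below rest partly on them. The range between the 1st and the 99th percentile of log2 ratios reached 3.04 for 3 h replicate 1 (forward), 1.70 for 0 h replicate 2 (swapped) and 1.10 for 3 h replicate 3 (swapped), against 0.74 to 0.99 on the others. Values without these 3 arrays come from single arrays, fitted with a term for the dye, which treats the arrays of a replicate as independent. Without them 15 of 35 members passed in the mean effect, 10 higher and 5 lower, against 30.6% of all genes (14.9% higher and 15.8% lower). MYH14, MYL9 and TAGLN were gained and TEAD2 was lost. DNAJC2 stood at -0.53 without them. A further fit with a term for the replicate number, given at the end, ended every call of a member at 0 h and at 3 h. It also ended the mean-effect calls of CALD1, VCL, ZYX, TEAD2, TEAD4 and CCN1, and it is not repeated for each gene below.

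**Figure D1:**
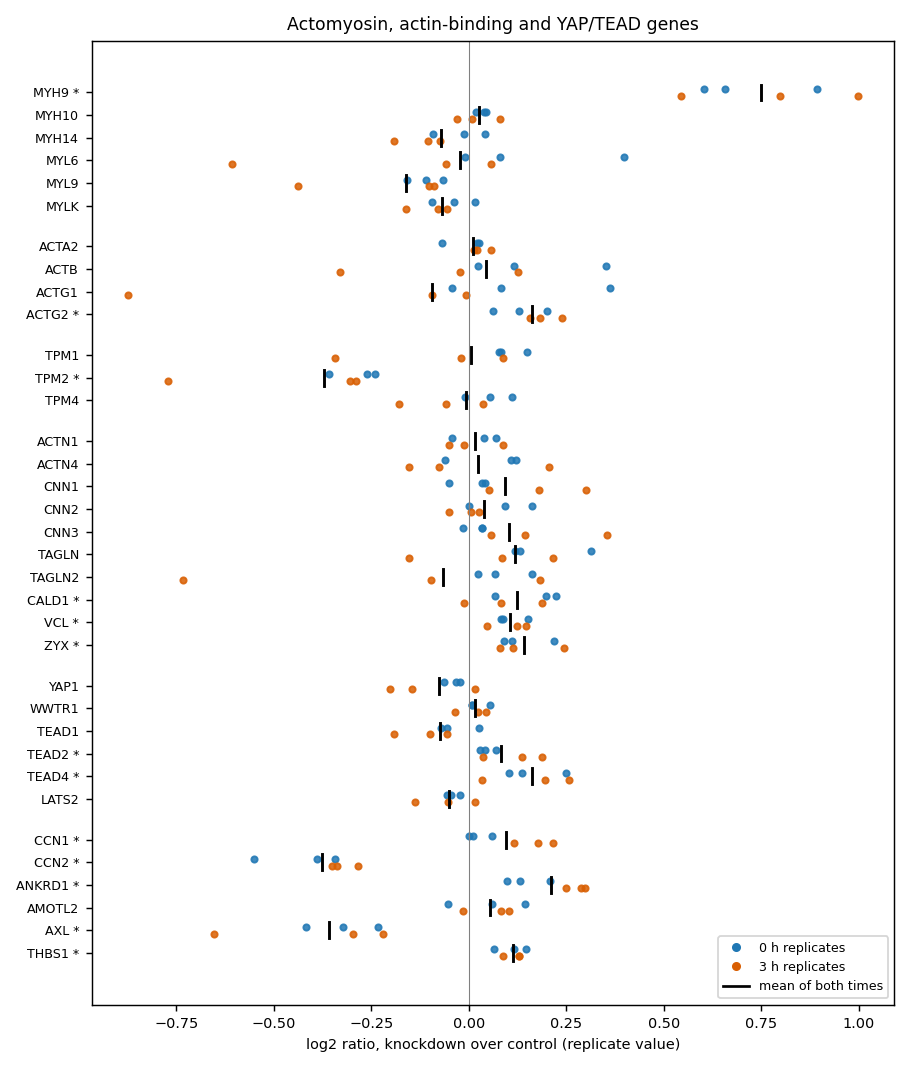
Log2 ratio of knockdown over control RNA for the 35 measured members in each of 3 replicates at 0 h and 3 replicates at 3 h, each the average of a forward and a turned swapped array; an asterisk marks the 13 members past the threshold in the mean effect. MYH9 lies between 0.55 and 1.00 in every replicate and CCN2 between -0.55 and -0.29, while most members lie near 0.

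Among the motors and their regulators, MYH9, the heavy chain of non-muscle myosin IIA (chr22:36281280-36387967, GRCh38.p14), had ratios of 0.60, 0.89 and 0.66 in the 0 h replicates. At 3 h they were 1.00, 0.55 and 0.80. All 6 replicates and 12 of 12 arrays were higher in the knockdown, and the values of both times overlapped. MYH9 rose by 0.75 ± 0.06 (SE, n = 6; limma adjusted p = 0.0014) over both times, a 1.68-fold difference. It was the largest change of any member. It passed at 0 h (0.72 ± 0.09, n = 3; limma adjusted p = 0.0110) and at 3 h (0.78 ± 0.09; limma adjusted p = 0.00923). On the 3 wide arrays MYH9 stood at 1.40, 1.19 and 1.00, and on the 9 others at 0.49 to 0.73. Without the wide arrays its mean effect was 0.60. The call at 0 h ended without any single 0 h replicate, with values of 0.63 to 0.78 and limma adjusted p of 0.0703 to 0.0778, and on forward arrays alone (0.55, adjusted p = 0.126). The call at 3 h ended with that time fitted alone (limma adjusted p = 0.0930).

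The other heavy chains did not pass with it. MYH10, which encodes the heavy chain of myosin IIB, stood at 0.03 ± 0.02 over both times. MYH14, that of myosin IIC, stood at -0.07 ± 0.02 (limma adjusted p = 0.0843), and at -0.08 (adjusted p = 0.0193) without the wide arrays. MYL9, a regulatory light chain of smooth muscle and non-muscle myosin, had ratios of -0.11, -0.07 and -0.16 at 0 h and -0.44, -0.10 and -0.09 at 3 h. All 6 were below 0, and the mean effect of -0.16 ± 0.05 did not pass (limma adjusted p = 0.0563). Without the wide arrays it was -0.13 and passed (limma adjusted p = 0.00042). However, MYL9 averaged -0.37 on forward and 0.05 on swapped arrays. The essential light chain MYL6 averaged -0.62 on forward and 0.57 on swapped arrays, which left a mean of -0.02 ± 0.09. MYLK, the kinase that activates the regulatory light chain, stood at -0.07 ± 0.02 (limma adjusted p = 0.0738).

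Of the 4 actins only ACTG2, the gamma actin of enteric smooth muscle, passed. Its ratios were 0.06, 0.13 and 0.20 at 0 h and 0.16, 0.24 and 0.18 at 3 h. All 12 arrays were above 0, the highest at 0.26. ACTG2 rose by 0.16 ± 0.02 (SE, n = 6; limma adjusted p = 0.00519), or 1.12-fold, and the value without the wide arrays was also 0.16. At 0 h it did not pass (0.13; limma adjusted p = 0.0619) and at 3 h it did (0.19; adjusted p = 0.0178). The 3 h call ended without 3 h replicate 2 (0.17; adjusted p = 0.0747) or 3 (0.20; adjusted p = 0.0525), on forward arrays alone (adjusted p = 0.0696) and with 3 h fitted alone (adjusted p = 0.0930), all by limma.

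The cytoplasmic actins could not be placed, because the dyes disagreed on all ACTG1 probes and on most ACTB probes. ACTG1 averaged -0.75 on forward and 0.56 on swapped arrays. Its replicate ratios were -0.04, 0.36 and 0.08 at 0 h and -0.87, -0.09 and -0.01 at 3 h, a mean effect of -0.10 ± 0.12 (limma adjusted p = 0.629). The lowest value came from the wide forward array of 3 h replicate 1, which read -2.28, and without the wide arrays the mean was 0.02. ACTB averaged -0.41 on forward and 0.50 on swapped arrays, with a mean effect of 0.04 ± 0.07. However, 1 ACTB probe was above 0 on all 12 arrays, with a mean effect of 0.29 (limma adjusted p = 0.0655), while its other probes split by dye. ACTA2, the alpha actin of vascular smooth muscle, stood at 0.01 ± 0.02. Actin genes are close copies of each other, so a probe for one may also bind RNA of another, and the deposited ratios do not separate them.

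Among tropomyosins TPM2, which encodes beta-tropomyosin, was lower in the knockdown on 12 of 12 arrays. The 0 h ratios were -0.26, -0.36 and -0.24, and the 3 h ratios were -0.77, -0.29 and -0.31. One replicate, the first at 3 h, stood apart from the other 5. TPM2 fell by 0.37 ± 0.06 over both times (SE, n = 6; limma adjusted p = 0.0100), to 0.773 of the control level. It passed at 3 h (-0.45 ± 0.09; limma adjusted p = 0.0272) and not at 0 h (-0.29; adjusted p = 0.122). The wide forward array of 3 h replicate 1 read -1.33, against -0.34 to -0.21 on the other 3 h arrays, and without the wide arrays the 3 h value was -0.27 and the mean effect -0.27. The 3 h call of TPM2 ended without 0 h replicate 1, 2 or 3 (-0.45 each; limma adjusted p of 0.0521 to 0.0639), without 3 h replicate 2 (-0.54; adjusted p = 0.0583), on forward arrays alone (-0.63; adjusted p = 0.0932) and with 3 h fitted alone (adjusted p = 0.141). On forward arrays alone the mean effect also missed the threshold (-0.46; limma adjusted p = 0.0650). TPM1 stood at 0.01 ± 0.05 and TPM4 at -0.01 ± 0.03.

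Of 10 measured genes for actin binding and crosslinking, 3 rose, 0 fell and 7 did not pass in the mean effect. ZYX, which encodes zyxin, had ratios of 0.09, 0.22 and 0.11 at 0 h and 0.11, 0.08 and 0.24 at 3 h. It rose by 0.14 ± 0.03 (limma adjusted p = 0.0149). VCL, which encodes vinculin and links integrins to actin, had ratios of 0.08, 0.15 and 0.09 at 0 h and 0.12, 0.05 and 0.15 at 3 h. It rose by 0.11 ± 0.02 (limma adjusted p = 0.0127). CALD1, which encodes caldesmon, an inhibitor of the myosin motor on actin, had ratios of 0.22, 0.20 and 0.07 at 0 h and 0.08, -0.01 and 0.19 at 3 h. It rose by 0.12 ± 0.03 (limma adjusted p = 0.0374), and its groups of replicates overlapped between the times.

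These 3 calls depended on single replicates. Without the wide arrays the mean effects were 0.09 for ZYX, 0.06 for VCL and 0.08 for CALD1, and each still passed. The forward and swapped averages were then -0.04 and 0.22 for ZYX, -5.2e-05 and 0.13 for VCL, and 0.19 and -0.02 for CALD1. Each of these effects thus stood mostly on 1 dye orientation. Without 0 h replicate 2 the calls of ZYX (0.12; limma adjusted p = 0.0532), VCL (0.10; adjusted p = 0.0510) and CALD1 (0.12; adjusted p = 0.121) ended. The call of CALD1 also ended without 0 h replicate 1 (0.11; limma adjusted p = 0.122), 3 h replicate 1 (0.13; adjusted p = 0.0514) or 3 h replicate 3 (0.10; adjusted p = 0.0770), on swapped arrays alone (0.04; adjusted p = 0.566) and with the median over its probes (0.13; adjusted p = 0.0547). ZYX averaged -0.03 on forward and 0.31 on swapped arrays, and VCL averaged 0.03 (limma adjusted p = 0.526) on forward and 0.19 on swapped arrays.

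The calponins, transgelins and actinins did not pass. TAGLN, transgelin, had ratios of 0.13, 0.31 and 0.12 at 0 h and -0.15, 0.09 and 0.22 at 3 h, with a mean effect of 0.12 ± 0.05 (limma adjusted p = 0.151). It averaged -0.12 on forward and 0.36 on swapped arrays, and passed without the wide arrays (0.10; limma adjusted p = 0.00115). CNN3, acidic calponin, had ratios of 0.04, -0.01 and 0.04 at 0 h and 0.36, 0.06 and 0.14 at 3 h, with a mean effect of 0.10 ± 0.04 (limma adjusted p = 0.106). CNN1 stood at 0.09 and CNN2 at 0.04. Without the wide arrays CNN3 stood at 0.05, CNN1 at 0.04 and CNN2 at 0.02. TAGLN2 stood at -0.07, and the crosslinkers ACTN1 and ACTN4 stood at 0.01 and 0.02, each within 1 SE of 0.

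Among the transcription factors and the kinase of the pathway, 2 of 6 rose and 0 fell. TEAD4, a TEAD factor known from trophoblast, had ratios of 0.14, 0.25 and 0.10 at 0 h and 0.26, 0.03 and 0.20 at 3 h. It rose by 0.16 ± 0.03 (limma adjusted p = 0.0177), and the value was 0.10 without the wide arrays. The call ended without 0 h replicate 1 (0.17; limma adjusted p = 0.0556) or 2 (0.14; adjusted p = 0.0645). TEAD2 had ratios of 0.03, 0.04 and 0.07 at 0 h and 0.19, 0.04 and 0.14 at 3 h. It rose by 0.08 ± 0.02 (limma adjusted p = 0.0432), just under the threshold. That call ended without the wide arrays (0.05; limma adjusted p = 0.0612), on forward arrays alone (0.07; adjusted p = 0.208) and without any single 0 h replicate or 3 h replicate 1 or 3 (0.07 to 0.09; adjusted p of 0.0698 to 0.135). YAP1 stood at -0.08 ± 0.03 (limma adjusted p = 0.120), WWTR1 at 0.02 ± 0.02, TEAD1 at -0.07 ± 0.02 (adjusted p = 0.0701) and LATS2 at -0.05 ± 0.02.

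Of the 6 YAP target genes 3 rose, 2 fell and AMOTL2 did not pass. CCN2 and ANKRD1, whose promoters are printed above, moved in opposite directions. CCN2, a secreted matricellular protein also called CTGF, had ratios of -0.39, -0.55 and -0.34 at 0 h and -0.35, -0.29 and -0.34 at 3 h. It was lower in the knockdown on 12 of 12 arrays, and the replicates of both times overlapped. CCN2 fell by 0.38 ± 0.03 (SE, n = 6; limma adjusted p = 0.00103), to 0.771 of the control level. Without the wide arrays the mean effect of CCN2 was -0.31. The size differed with the dye, as CCN2 averaged -0.21 on forward and -0.55 on swapped arrays (-0.19 and -0.45 without the wide arrays). It fell at 0 h, at -0.43 ± 0.04 (limma adjusted p = 0.00645), and at 3 h, at -0.32 ± 0.04 (adjusted p = 0.00998). The 0 h call ended without 0 h replicate 1 (-0.45; limma adjusted p = 0.0565) and on forward arrays alone (-0.20; adjusted p = 0.0608), and the 3 h call ended with 3 h fitted alone (adjusted p = 0.0930).

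ANKRD1, a nuclear and sarcomeric ankyrin repeat protein, had ratios of 0.10, 0.21 and 0.13 at 0 h and 0.25, 0.29 and 0.30 at 3 h. All 6 were above 0, and every 3 h replicate lay above every 0 h replicate. ANKRD1 rose by 0.21 ± 0.02 (SE, n = 6; limma adjusted p = 0.0015), or 1.16-fold, and by 0.20 without the wide arrays. It passed at 0 h (0.15 ± 0.03; limma adjusted p = 0.0328) and at 3 h (0.28 ± 0.03; adjusted p = 0.00661). The 0 h call of ANKRD1 ended on swapped arrays alone (0.09; limma adjusted p = 0.167) and without any single 0 h replicate or 3 h replicate 2 or 3 (0.11 to 0.17; adjusted p of 0.0534 to 0.175). Its 3 h call ended with 3 h fitted alone (limma adjusted p = 0.0930).

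CCN1, the relative of CCN2 also called CYR61, did not follow CCN2. Its ratios were -0.00, 0.06 and 0.01 at 0 h and 0.22, 0.12 and 0.18 at 3 h, so the groups did not overlap. CCN1 passed at 3 h (0.17 ± 0.03; limma adjusted p = 0.0162) and stood at 0.02 at 0 h (adjusted p = 0.677). Its mean effect was 0.10 ± 0.02 (limma adjusted p = 0.0150) and 0.06 without the wide arrays, and the 3 h value was 0.10 without them. The call on the mean effect ended without 0 h replicate 2 (0.09; limma adjusted p = 0.0592) or 3 (0.10; adjusted p = 0.0512) and on forward (0.12; adjusted p = 0.100) or swapped arrays alone (0.08; adjusted p = 0.0822). The call at 3 h ended without 3 h replicate 3 (0.17; limma adjusted p = 0.0528), on forward (0.19; adjusted p = 0.0949) or swapped arrays alone (0.15; adjusted p = 0.0531) and with 3 h fitted alone (adjusted p = 0.106).

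AXL, a receptor tyrosine kinase, fell. Its ratios were -0.32, -0.42 and -0.23 at 0 h and -0.65, -0.22 and -0.30 at 3 h, and 12 of 12 arrays were below 0. The mean effect was -0.36 ± 0.06 (SE, n = 6; limma adjusted p = 0.00773), to 0.781 of the control level, and -0.25 without the wide arrays. AXL passed at 3 h (-0.39 ± 0.08; limma adjusted p = 0.0303) and not at 0 h (-0.32; adjusted p = 0.0674). The forward array of 3 h replicate 1 read -1.16, against -0.33 to -0.15 on the other 3 h arrays, and without the wide arrays the 3 h value was -0.23. The 3 h call ended without any single 0 h replicate or 3 h replicate 2 or 3 (-0.48 to -0.39; limma adjusted p of 0.0529 to 0.0685), on forward (-0.57; adjusted p = 0.0840) or swapped arrays alone (-0.21; adjusted p = 0.0785) and with 3 h fitted alone (adjusted p = 0.139). The call on the mean effect ended on forward arrays alone (-0.43; limma adjusted p = 0.0518).

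THBS1, which encodes the matrix glycoprotein thrombospondin, rose slightly. Its ratios were 0.15, 0.12 and 0.06 at 0 h and 0.09, 0.13 and 0.13 at 3 h, with all 12 arrays above 0. The mean effect was 0.11 ± 0.02 (SE, n = 6; limma adjusted p = 0.00669), or 1.08-fold, and was 0.11 without the wide arrays. THBS1 passed narrowly at 0 h (0.11; limma adjusted p = 0.0499) and at 3 h (0.12; adjusted p = 0.0316). Both calls ended without any single 0 h replicate or 3 h replicate 2 or 3 (0.09 to 0.13 at 0 h, 0.11 to 0.12 at 3 h; limma adjusted p of 0.0532 to 0.242), on forward or swapped arrays alone and with each time fitted alone. AMOTL2, an angiomotin that binds YAP1, stood at 0.05 ± 0.03.

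At 0 h 4 of 35 members passed, with MYH9, ANKRD1 and THBS1 higher and CCN2 lower, against 6.82% of all genes (2.92% higher and 3.89% lower). At 3 h 8 passed, 5 higher (MYH9, ACTG2, CCN1, ANKRD1 and THBS1) and 3 lower (TPM2, CCN2 and AXL), against 12.6% of all genes (6.84% higher and 5.77% lower). The counts changed with single replicates, and the shares of all genes changed with them. At 0 h 0, 1 and 1 members passed without 0 h replicates 1, 2 and 3 (limma; 10, 7 and 11 members at an unadjusted p under 0.05), against 0.198%, 0.322% and 0.306% of all genes. The count was 10 without 3 h replicate 1 and 2 without 3 h replicate 2 or 3, against 12.8%, 3.82% and 4.61% of all genes, and 14 without the wide arrays (10 higher and 4 lower), where 18.6% of all genes passed (8.74% higher and 9.83% lower). The count at 3 h was 5 without any single 0 h replicate (5.07% to 7.99% of all genes) and 5 without 3 h replicate 2 or 3 (3.74% and 5.87%). It was 0 in limma with that time fitted alone (17 members at an unadjusted p under 0.05; 0% of all genes) and 11 without the wide arrays (6 higher and 5 lower), where 19.3% of all genes passed (9.63% in each direction).

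Whether the knockdown effect differed between the times was tested directly, as the 3 h effect minus the 0 h effect. In limma 0 of 35 members and 0 of 18646 genes passed (0% of all genes), and 3 members and 943 genes had an unadjusted p under 0.05. The smallest adjusted p among members was 0.718. The 3 were CCN1, with a difference of 0.15 ± 0.04, ANKRD1, with 0.13 ± 0.04, and CNN1, with 0.17. Without the wide arrays these differences were 0.08, 0.15 and 0.09. CCN2 had a difference of 0.10 ± 0.06 and MYH9 of 0.06 ± 0.13, the latter -0.06 without the wide arrays. So the pass of ACTG2, TPM2, CCN1 and AXL at 3 h and not at 0 h is not shown to be a difference between the times. Treated and untreated RNA never shared an array, so these ratios do not give the response to retinoic acid.

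**Figure D2:**
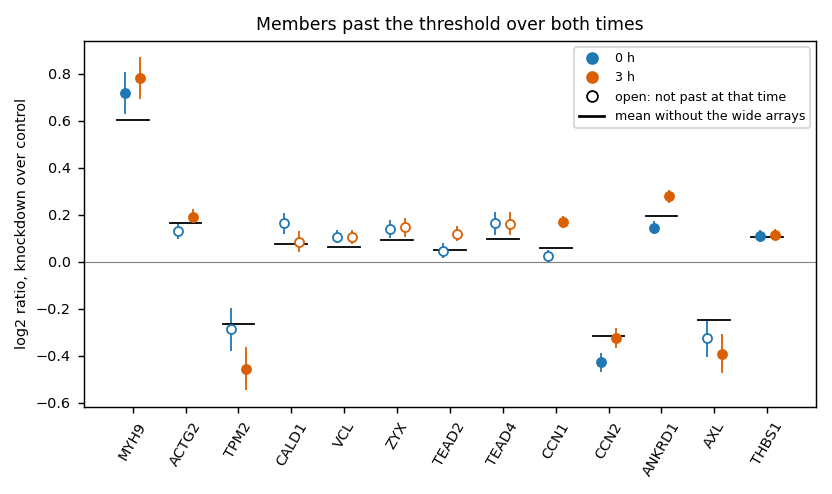
Knockdown effect (log2 ratio) at 0 h and at 3 h for the 13 members past the threshold in the mean effect, each the mean of 3 replicates. Open symbols mark members that did not pass at that time, and a black line marks the mean without the 3 wide arrays. CCN1 moves from 0.02 at 0 h to 0.17 at 3 h, and 0 members passed the test of the difference.

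The 2 dye orientations were also set side by side for each member. Forward and swapped averages of the knockdown ratio had opposite signs in 19 of 35 members (54.3%) and in 53.9% of all genes. Among the 13 members past the threshold this held for ZYX alone with all 12 arrays. Without the wide arrays it also held for CALD1 (0.19 and -0.02), and VCL averaged near 0 on forward arrays (-5.2e-05). The tested values average both orientations, so a member whose orientations disagree seldom passes, and agreement of the signs is not a separate check of the calls. MYH9, ACTG2, TPM2, CCN2, AXL and THBS1 kept 1 sign of the knockdown ratio on all 12 arrays, which is 17.1% of members and 9.14% of all genes. Conversely, 8 members had 1 sign of the ratio of Cy5 over Cy3 on all 12 arrays, whichever channel held the knockdown, namely MYL6, ACTB, ACTG1, ACTN1, CNN2, TAGLN, TAGLN2 and YAP1. That is 22.9% of members, against 10.9% of all genes. With all arrays their mean effects had limma adjusted p of 0.120 or more, and TAGLN passed without the wide arrays.

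**Figure D3:**
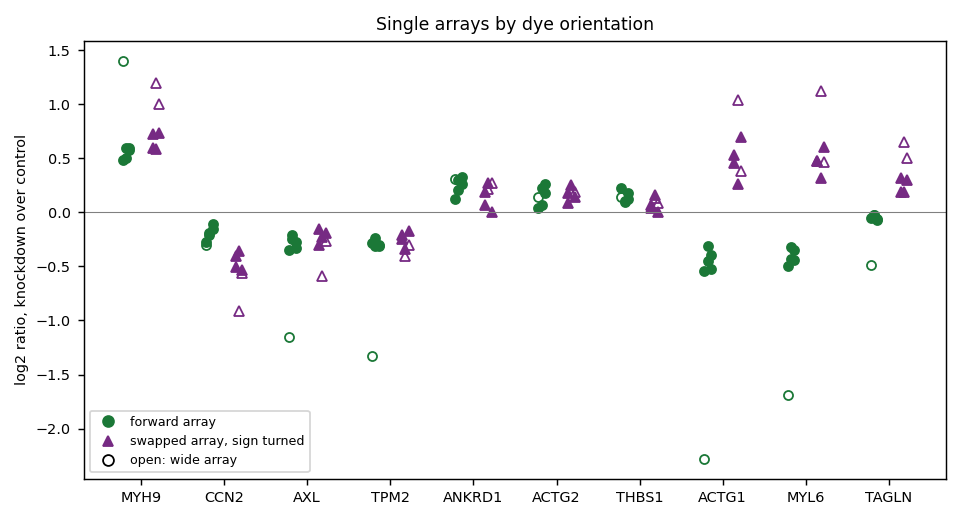
Log2 ratio of knockdown over control on the 6 forward and 6 swapped arrays after turning, with open symbols for the 3 wide arrays. The members drawn are MYH9, CCN2, AXL, TPM2, ANKRD1, ACTG2, THBS1, ACTG1, MYL6 and TAGLN. ACTG1 and MYL6 split into forward values below 0 and swapped values above 0, while MYH9 and CCN2 stay on 1 side of 0 on all 12 arrays.

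Probes of a member were averaged. Tested one by one, 21 of 75 member probes (28%) passed in the mean effect, against 19.1% of 29341 probes with 1 gene symbol. Of 23 members with 2 or more probes, 7 had probes of both signs and 4 had probes more than 0.2 apart. Both MYH9 probes passed, at 0.62 and 0.88, as did both TPM2 probes, at -0.41 and -0.33, and all 3 CCN1 probes, at 0.08 to 0.11. The calls of ACTG2, ZYX, TEAD2, TEAD4, CCN2, ANKRD1 and AXL each rested on 1 probe. Tested among probes, that of TEAD2 did not pass (limma adjusted p = 0.0538). The THBS1 probes differed, with 1 at 0.19 (limma adjusted p = 0.00525) and the other at 0.04 (adjusted p = 0.291), and the CALD1 probes ranged from 0.01 to 0.25, with 1 of 4 past the threshold. TPM1, WWTR1 and TEAD1 each had a probe past the threshold without passing as a gene. The 7 TPM1 probes ran from -0.17 to 0.17 and 2 of them passed. One of the latter, annotated to another TPM1 transcript than most, read between 0.10 and 0.28 on every array. For ACTB 1 probe stood at 0.29 and the other 3 at -0.06 to -0.01, with 0 of 4 past the threshold.

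**Figure D4:**
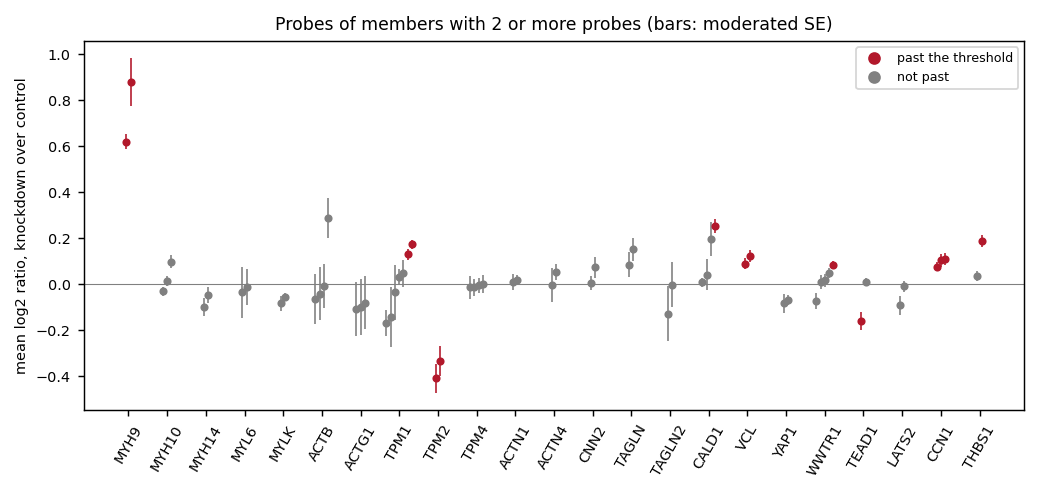
Mean knockdown effect (log2 ratio, with the moderated SE as bars) of each probe of the members with 2 or more probes, with probes past the threshold in red. The 2 MYH9 probes lie at 0.62 and 0.88, and the 7 TPM1 probes run from -0.17 to 0.17.

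Members holding GGAATG passed in both directions. Of 11 members past the threshold in the mean effect and for which RefSeq gave a promoter, 7 held GGAATG, of which MYH9, ANKRD1, CALD1, VCL and THBS1 rose and CCN2 and AXL fell. Of the other 18 members with a promoter entry, 6 held it. A CArG box stood in 1 of the 11, ACTG2, and in 5 of the 18. Genes were counted once here, whatever their number of promoter entries.

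Neighbouring gene lists were counted in the mean effect, against the 10.8% higher and 10.7% lower of all genes. These lists too were chosen with earlier results of these data known. Among focal adhesion and stress fibre genes 4 of 37 rose and 7 fell, including TNS3, a tensin (0.19, and 0.11 without the wide arrays), and PDLIM4 (-0.16), SORBS3, vinexin (-0.16), and EVL, an actin-filament elongation factor (-0.15). Of SRF and its cofactors 0 of 9 passed in limma, and the smallest p belonged to MYOCD (-0.06) and SCAI (-0.03).

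Of 27 Hippo kinases and regulators 3 rose and 4 fell, shares near those of all genes. The angiomotin AMOT stood at 0.16, the kinase scaffold SAV1 at 0.13 (0.08 without the wide arrays), the protocadherin DCHS1 at -0.14 and the kinase STK4 at -0.12. Of 20 further YAP targets 7 rose and 1 fell. CCDC80, a secreted matrix protein, rose by 0.35 ± 0.02 (limma adjusted p = 0.000857), NPPB, the B-type natriuretic peptide, by 0.33 and RBMS3, an RNA-binding protein, by 0.23, while TGFB2, a growth factor, stood at -0.19. The values without the wide arrays were 0.32, 0.23, 0.24 and -0.17. Of 11 other myosin heavy chains, MYH2 rose, at 0.20, and MYH11, of smooth muscle, fell, at -0.22.

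Markers of other cell types, and of embryonal carcinoma as the type of the line itself, were counted in the same way. Of 15 smooth and striated muscle markers 2 rose (DES, 0.22, and ACTA1, 0.13) and 2 fell (TNNT1, -0.56, and MYH11). Of 14 fibroblast and mesenchymal markers 5 rose and 1 fell, with THY1 at 0.27, LUM at 0.24, TWIST1 at 0.15 and COL1A1 at -0.25. Among 11 embryonal carcinoma markers GDF3 rose (0.49) and DNMT3B fell (-0.07), and among 8 neural markers PAX6 rose (0.18) while TUBB3 (-0.28), MAP2 (-0.11) and SOX1 (-0.07) fell. DNMT3B and SOX1 did not pass without the wide arrays (limma adjusted p = 0.148 and 0.196). The part of cells of any of these types in the results for the members was not tested.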

How the data were processed

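RNA of knockdown and control cells was hybridised to 12 two-colour arrays, 6 at each time. The deposited values, whose unit the labels do not state, were taken as signed fold ratios, Cy5 over Cy3 (below 1 as the negative inverse), since the values had 2 decimals and 0 of them fell between -1 and 1. The authors used limma, per the submitters' processing notes, with version, background correction and normalization not given in the sources used here. Ratios were converted to log2, the sign of swapped arrays was turned by the dyes in the labels, 29341 probes with 1 gene symbol were averaged per gene, and the 2 arrays of a replicate were averaged. Without intensities no dim probe was filtered, and precision is limited by the number of arrays. limma 3.58.1 in R 4.3.3 fitted a coefficient per time to 6 values per gene (4 residual degrees of freedom, moderated SE), with Benjamini-Hochberg adjustment over 18646 genes and a threshold of 0.05. The p-values measure the spread between these replicates, taken on different days. The scripts were tested on simulated data. Alternatives changed the normalization, the dye orientation, the averaging of arrays and probes, the wide arrays, the replicate block, the times in the fit and single replicates. Named were all members past the threshold, the 4 largest others and up to 4 genes a list, or the 2 with the smallest p where 0 passed. Members and lists were chosen with earlier results of these data known. The result of 1 further gene list is not reported here. Replicate numbers were not used to pair samples across times. The deviations of same-numbered replicates correlated at 0.04, -0.03 and -0.30 (correlations across genes), which does not settle whether they pair.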

Additional observations from a re-analysis of the deposited data

Results flagged for a closer look

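Some single arrays stood apart from the other 5 of their time, by Dixon's gap test at its 95% critical value for 6 values. The spread of all log2 ratios did so for the swapped array of 0 h replicate 2 (1.70) and for the forward array of 3 h replicate 1 (3.04). Of 34 groups, a named member at 1 time each, 8 had such an array, where chance gives about 1 in 20, and 7 of the 8 were on those 2 arrays.

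On the forward array of 3 h replicate 1, TPM2 read -1.33 (the others -0.34 to -0.21), AXL -1.16 (-0.33 to -0.15), MYL9 -0.86 (-0.25 to 0.07), CNN3 0.74 (-0.03 to 0.15) and ACTG1 -2.28 (-0.45 to 0.53). On the swapped array of 0 h replicate 2, MYH9 read 1.19 (0.49 to 0.73) and TEAD4 0.40 (0.10 to 0.14). ANKRD1 read 0.19 on the swapped array of 3 h replicate 1, against 0.28 to 0.32 on the other 3 h arrays, and that array was not wide.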

How the results depend on the processing

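Of 792 values of named genes under the alternatives, 592 kept their direction and their side of the threshold, 104 lost the call, 80 gained one and 16 changed sign. MYH9, ACTG2, CCN2, ANKRD1 and THBS1 passed in the mean effect under all 14 alternatives. Shares of all genes stand in parentheses. The 4 members passing at 0 h (6.82%) became 12 (15.9%) after quantile normalization, 11 (14.8%) with arrays rescaled by width, 1 (4.29%) on forward and 15 (23.7%) on swapped arrays alone, 14 (18.6%) without the wide arrays and 0 to 10 (0.198% to 12.8%) with 1 replicate left out. The 8 at 3 h (12.6%) became 16 (19.8%), 17 (19.3%) and 4 (6.77%) on quantile normalization, rescaling and forward arrays, 0 (0%) with 3 h fitted alone and 5 to 8 (3.74% to 7.99%) with 1 replicate left out. The 13 in the mean effect (21.5%) became 24 (36.4%) on swapped arrays and 7 to 14 (11.4% to 22.7%) with 1 replicate left out, the 7 without 0 h replicate 2. The 47 genes of other lists became 71 rescaled, 79 on swapped arrays, 71 without the wide arrays and 26 to 50 with 1 replicate left out, with 30, 26 and 28 without 0 h replicates 1, 2 and 3. In a fit with the replicate block, limma called 0 members at 0 h (13 at an unadjusted p under 0.05) and 0 at 3 h (20). At each of these times 0 of all genes passed in that fit. In the mean effect it called 7 members (9.9% of all genes) and 24 genes of other lists. The mean-effect calls of CALD1, VCL, ZYX, TEAD2, TEAD4 and CCN1 ended. Whether the replicate numbers shared between the times pair the samples is not known. The difference between times gave 0 members under every alternative run.

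Signs turned mostly with the dye orientation. On forward arrays ZYX was -0.07 at 0 h and -0.028 in the mean, TAGLN -0.046, -0.19 and -0.12 at 0 h, 3 h and in the mean, and ACTG1 -0.46 at 0 h. On swapped arrays CALD1 was -0.015 at 3 h, MYL9 0.082, 0.0092 and 0.046 at 0 h, 3 h and in the mean, CNN3 -0.033 at 0 h, and ACTG1 0.39 at 3 h and 0.56 in the mean (limma adjusted p = 0.0453 and 0.00218). With 1 replicate left out TAGLN at 3 h went from -0.034 (without 3 h replicate 3) to 0.15, and ACTG1 in the mean from -0.175 to 0.042 (without 3 h replicate 1), and the latter was 0.017 without the wide arrays. The cause was not tested. Signal over background is unknown, and n = 3 per time limits small ratios most.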
